A study of Mus musculus with 28 samples.

Results

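The expression of 10 target genes of p53 was followed gene by gene in liver and kidney of mice that received nicotinamide mononucleotide (NMN), a precursor of NAD+, by gavage. The genes were taken from a fixed list of p53 targets, Cdkn1a, Mdm2, Ccng1, Phlda3, Eda2r, Bbc3, Trp53inp1, Gdf15, Sesn2 and Bax, and all 10 were found among the 54446 genes counted. Male C57BL/6 mice (C57BL6J in the study's methods) of 8 weeks carried no transgene and received NMN in water or water alone for 7 days. The labels give 2 daily doses in mg/kg/d, 1340 and 2680, and the methods of the study state that the higher dose was reached with more gavages per day, so that dose and number of gavages cannot be told apart. There were 4 NMN and 4 water libraries per organ at 1340 mg/kg/d and 3 and 3 at 2680 mg/kg/d, in all 28 libraries of polyA-selected RNA.

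p53 is a transcription factor that cells stabilise after DNA damage and other stresses. Its targets halt the cell cycle (Cdkn1a), feed back on p53 itself (Mdm2, Ccng1), favour cell death (Bbc3, Bax, Eda2r, Trp53inp1) or adjust growth and metabolism (Phlda3, Sesn2, Gdf15). Several of them also answer to other regulators in liver and kidney, such as the transcription factor ATF4 for Sesn2 and Gdf15, so that the level of a target is not a measure of p53 activity on its own.

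The p53 protein binds DNA as a tetramer, and each pair of its subunits reads a short half-site. Promoter sequences from RefSeq (build GRCm38.p6, 250 bases before the transcription start) were at hand for 9 of the 10 genes, in 13 windows, and Trp53inp1 was not matched. The stretches around the letters of the half-site are shown as matches of sequence, and binding of p53 to them was not tested. Capitals mark each match to the p53 half-site, searched on both strands without a mismatch.
Cdkn1a, chr17:29090876-29090967, plus strand: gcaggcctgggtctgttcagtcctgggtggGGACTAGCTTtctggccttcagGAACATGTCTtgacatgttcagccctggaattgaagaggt
Mdm2, chr10:117710905-117710974, minus strand: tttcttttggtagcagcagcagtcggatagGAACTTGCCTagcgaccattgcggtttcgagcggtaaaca
Ccng1, chr11:40755432-40755501, minus strand: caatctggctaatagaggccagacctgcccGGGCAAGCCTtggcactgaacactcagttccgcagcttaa
Bax, chr7:45467060-45467129, minus strand: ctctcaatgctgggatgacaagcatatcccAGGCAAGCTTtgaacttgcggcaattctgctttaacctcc
A half-site stood in 4 of the 13 windows, one each for Cdkn1a, Mdm2, Ccng1 and Bax, and in 7.13% of the 32851 promoter windows of the table. This Cdkn1a window held 2 of them, and the other Cdkn1a window held 0. These matches are a description of the letters, and windows without one say nothing about sites elsewhere in the gene. 

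Library totals ran from 12688324 to 16455228 counted reads in the liver at 1340 mg/kg/d and from 17573184 to 20635269 at 2680 mg/kg/d. In the kidney they ran from 13174264 to 15696435 at 1340 mg/kg/d. At the higher dose the 3 water kidneys lay between 16358886 and 18983689 and the 3 NMN kidneys between 22922994 and 33872983, so the NMN libraries were the deeper ones there. The organs matched their labels, since 6 hepatocyte markers summed to between 86017 and 149593 counts per 1e6 counted reads (CPM) in the liver and to between 75.2 and 245.3 in the kidney, with Alb the most abundant in every liver. The 5 proximal tubule markers, led by Slc34a1 in the kidney, summed to between 6621 and 11713 CPM in the kidney and to between 45.8 and 102.3 in the liver. The liver and the kidney are mixtures of cell types, and fewer cells of a type and less RNA per cell cannot be told apart in such libraries.

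Values below are CPM after TMM scaling, a factor per library that sets most genes level, unless another scale is named. The test was edgeR's quasi-likelihood test over all genes that passed a filter on low counts, with Benjamini-Hochberg adjustment over those genes, and a gene was called at an adjusted p under 0.05. Eda2r had too few counts for the filter in each comparison of NMN with water, so that 9 of the 10 genes were tested. The p-values set a difference against the spread between libraries within groups, an estimate that borrows from all tested genes. The main fits treated all libraries as independent, also liver and kidney libraries of the same number.

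In the liver at 2680 mg/kg/d, Trp53inp1 and Mdm2 rose with NMN, by 3.38-fold and 1.98-fold. They were 2 of the 9 genes tested, both higher, where 7.08% of the 12477 genes tested were called and 3.05% were called higher. The split of all calls into 380 higher and 503 lower (43.0% higher) depended on the scaling, since library totals alone moved the median of all genes by 0.15 on the log2 scale and gave 71.5% higher. Trp53inp1 and Mdm2 were called higher under both. In the other 3 comparisons of NMN with water, 0 of the 9 genes were called by edgeR. The background there was 0.0161% of 12449 tested genes for the lower dose in the liver, 0.12% of 14972 for the lower dose in the kidney and 0.4% of 15245 for the higher dose in the kidney. At an unadjusted p under 0.05 the numbers of the 9 genes were 3, 2 and 3 in that order, beside 6.86%, 8.94% and 11.1% of all genes, and DESeq2 at an adjusted p under 0.05 gave 1, 0 and 2, beside 0.573%, 1.23% and 1.52%. In livers of the higher dose the unadjusted count was 5 of the 9, all higher. Of all 12477 tested genes there, 24.6% passed in either direction and 1540 were higher. DESeq2 called the same 2 genes, beside 11.6%.

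**Figure D1:**
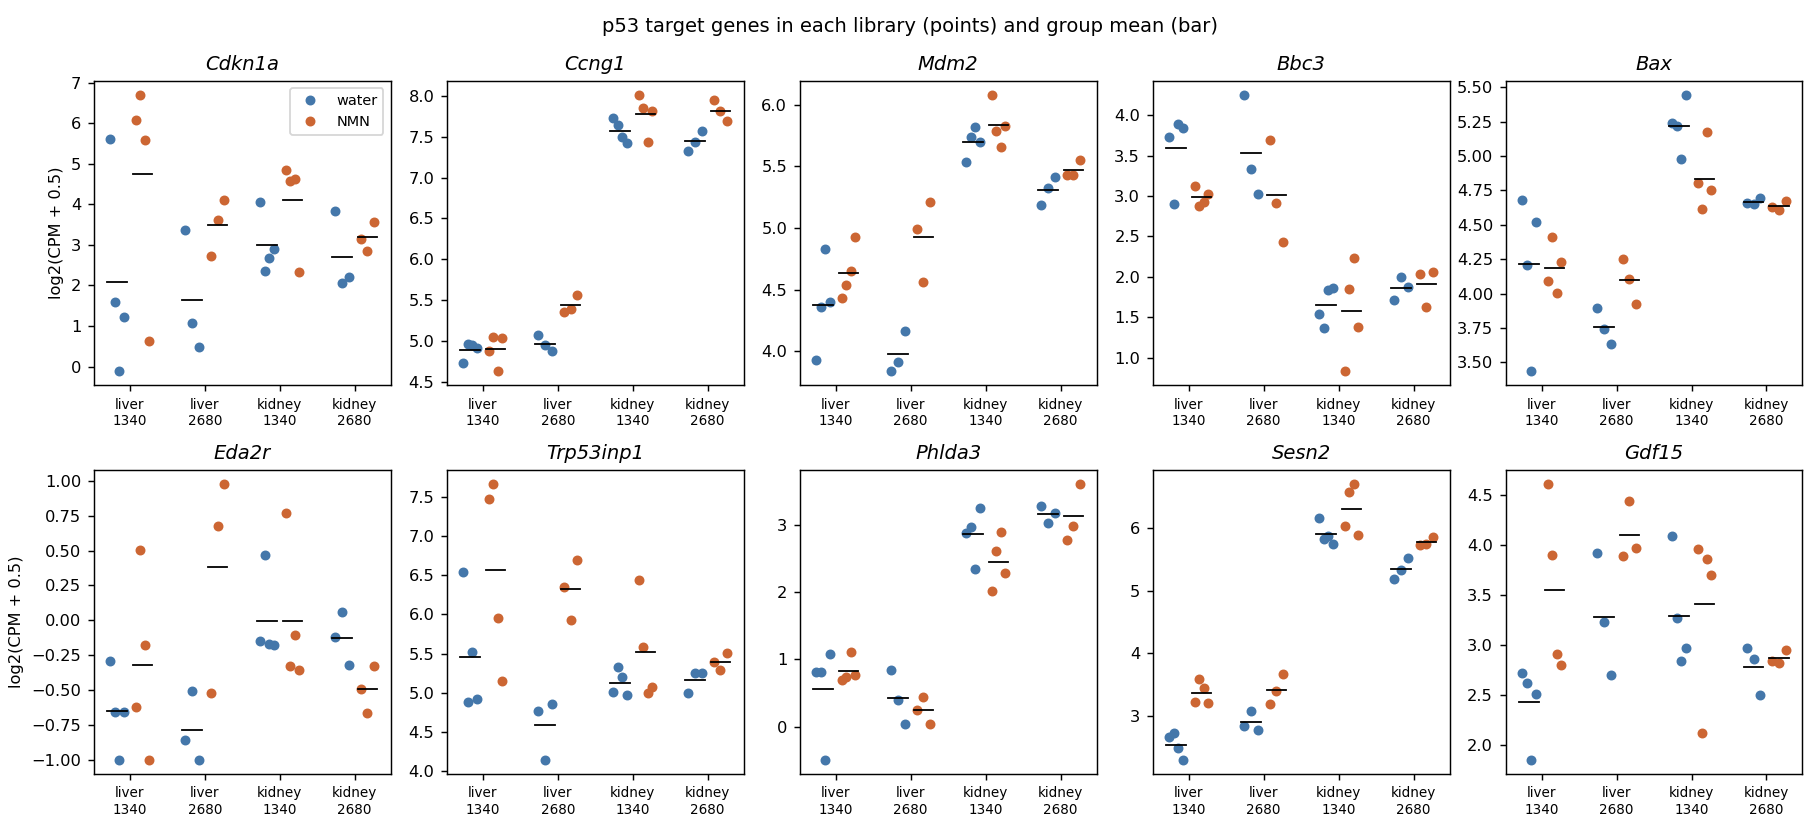
Level of each of the 10 p53 target genes in each library as log2(CPM + 0.5), by organ and schedule in mg/kg/d, with water in blue and NMN in orange; points are libraries (4 per group at 1340 and 3 at 2680) and bars are means of the log2 values. Trp53inp1, Mdm2, Ccng1, Sesn2 and Bax separated NMN from water in the liver at 2680 mg/kg/d, as did 29.8% of all tested genes there. The Cdkn1a points were spread widely within the groups.

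Trp53inp1 encodes a nuclear protein that promotes p53 phosphorylation, cell death and autophagy. At 2680 mg/kg/d the liver values were 26.8, 17.2 and 28.4 CPM in the water libraries and 80.8, 60.7 and 102.8 in the NMN libraries. Each NMN liver was above each water liver, and the lowest NMN liver was above the highest water liver by more than the range of the water group. The means were 24.1 ± 6.07 and 81.4 ± 21.1 CPM (SD, n = 3 each), a log2 fold change of 1.76 (SE 0.24, adjusted p = 0.00317, edgeR). It was the only one of the 9 to pass a stricter threshold (adjusted p under 0.01 and a change of more than 2-fold either way), which 1.08% of the tested genes passed. Leaving out single libraries gave log2 fold changes from 1.55 to 1.92, called 6 of 6 times. When the livers of both schedules were fitted together, sharing one estimate of the spread, Trp53inp1 was no longer called there (adjusted p = 0.139, edgeR) and Mdm2 was.

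At 1340 mg/kg/d the liver values of Trp53inp1 were 92.6, 28.9, 45.3 and 29.7 CPM with water and 176.6, 203.2, 61.7 and 35.0 with NMN. The groups overlapped, since water library 1 was above NMN libraries 3 and 4. The log2 fold change was 1.28 with an SE of 0.68 (adjusted p = 0.802, edgeR), and the within-group spread was larger than that of 99.1% of the tested genes. In the kidney at 1340 mg/kg/d the values were 31.8, 39.8, 36.2 and 30.8 CPM with water and 86.5, 47.4, 31.3 and 33.3 with NMN, so that NMN libraries 1 and 2 were above all water libraries and the other two were among them. The kidney values at 2680 mg/kg/d were 31.6, 37.5 and 37.7 with water and 41.7, 38.6 and 45.0 with NMN, a log2 fold change of 0.23 (SE 0.10, adjusted p = 0.397, edgeR). Those kidney groups did not overlap, but the difference in means, from 35.6 to 41.7 CPM, was small beside that in the liver.

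The difference between the organs in the Trp53inp1 response was tested with an interaction term, separately for each schedule. For the higher dose the log2 fold change was higher in the liver than in the kidney by 1.51 (SE 0.28, 95% interval 0.96 to 2.05, adjusted p = 0.0136, edgeR), where 2.65% of 15811 genes were called. Leaving out each library in turn gave 1.29 to 1.66, called 12 of 12 times. It was the only one of the 10 genes called in that interaction. For the lower dose the same difference was 0.77 with a 95% interval from -0.78 to 2.32, and 0 of 15614 genes were called by edgeR there, with 904 at an unadjusted p under 0.05 and 26 by DESeq2. Whether the liver responses differed between the schedules could not be shown either, with an interaction of 0.48 and a 95% interval from -1.19 to 2.15 (adjusted p = 0.940, edgeR), where 0.0746% of 13412 genes were called and none of the 10. The same interaction in the kidney called 0.00625% of 15989 genes and none of the 9 tested there.

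Mdm2 encodes the ubiquitin ligase that marks p53 for degradation, and it is itself a target of p53. In livers of the higher dose the water libraries held 13.8, 14.6 and 17.5 CPM and the NMN libraries 31.4, 23.1 and 36.6. All NMN livers were above all water livers. The means were 15.3 ± 1.93 and 30.4 ± 6.80 CPM (SD, n = 3 each), a log2 fold change of 0.99 (SE 0.20, adjusted p = 0.0176, edgeR). The call rested on more than one library: the adjusted p was 0.0718 without water library 1, 0.0844 without water library 2 and 0.0858 without NMN library 3, while the log2 fold change stayed between 0.83 and 1.15 over the 6 fits.

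At the lower dose Mdm2 in the liver stood at 14.7, 20.0, 27.9 and 20.6 CPM with water and at 21.1, 22.7, 24.6 and 29.9 with NMN, and water library 3 was above NMN libraries 1, 2 and 3. Its log2 fold change was 0.24 (SE 0.19, adjusted p = 0.858, edgeR). The kidneys stood at 45.9, 52.9, 55.8 and 51.3 CPM with water and at 67.1, 54.7, 49.8 and 56.2 with NMN at the lower dose, and at 35.9, 39.4 and 42.2 with water and 42.5, 42.6 and 46.4 with NMN at the higher one. The groups overlapped at the lower dose only. Kidney means went from 51.5 ± 4.17 to 57.0 ± 7.28 CPM at 1340 mg/kg/d (n = 4 each) and from 39.2 ± 3.16 to 43.8 ± 2.21 at 2680 mg/kg/d (n = 3 each), with log2 fold changes of 0.15 and 0.16, neither called. The response at 2680 mg/kg/d was higher in the liver than in the kidney by 0.81 (SE 0.22, adjusted p = 0.0627, edgeR), which missed the threshold, while DESeq2 gave an adjusted p of 0.0168. That interaction passed in edgeR without water liver library 3, with a value of 0.88, and without NMN liver library 2, with 0.95. Between the liver schedules the difference was 0.76 (95% interval 0.19 to 1.32, adjusted p = 0.442, edgeR).

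Ccng1 encodes cyclin G1, which recruits a phosphatase to Mdm2. At the higher dose the liver stood at 33.0, 30.5 and 28.8 CPM with water and at 40.4, 41.6 and 46.5 with NMN. The kidney of the same schedule stood at 160.0, 172.6 and 189.7 with water and at 247.0, 225.6 and 206.0 with NMN. In both organs the groups did not overlap, as was so for 29.8% of all tested genes in the liver and 17.2% in the kidney at this schedule. The log2 fold changes were 0.48 (SE 0.15, adjusted p = 0.0728) in the liver and 0.38 (SE 0.09, adjusted p = 0.128) in the kidney with edgeR, and DESeq2 called the kidney value (adjusted p = 0.0283). The liver value was called with library totals alone, at 0.63 (adjusted p = 0.0248), where all genes were shifted by 0.15. The lower dose gave log2 fold changes of 0.01 in the liver and 0.22 in the kidney, and the groups overlapped in both organs.

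Sesn2 encodes sestrin 2, which restrains mTORC1 signalling when amino acids are scarce. Livers of the lower dose held 5.78, 6.06, 5.09 and 4.39 CPM with water and 8.79, 11.5, 10.4 and 8.75 with NMN. The groups did not overlap, as for 3.53% of the tested genes in that comparison. The means were 5.33 ± 0.747 and 9.86 ± 1.33 CPM (SD, n = 4 each), a log2 fold change of 0.89 (SE 0.21) with an adjusted p of 0.251 by edgeR and 0.0203 by DESeq2. At the higher dose the liver values were 6.59, 7.92 and 6.34 with water and 8.58, 10.05 and 12.1 with NMN, again without overlap. The log2 fold change there was 0.56 (SE 0.22, adjusted p = 0.153, edgeR).

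In the kidney Sesn2 was several times as abundant as in the liver. Its values at 1340 mg/kg/d were 71.0, 56.4, 58.0 and 53.2 CPM with water and 65.5, 95.5, 104.6 and 58.9 with NMN, and at 2680 mg/kg/d they were 36.1, 39.6 and 45.3 with water and 52.8, 53.4 and 57.5 with NMN. The groups overlapped at the lower dose, where water library 1 was above NMN libraries 1 and 4, and did not at the higher one. The log2 fold changes were 0.44 in both, with SEs of 0.17 and 0.09 and adjusted p-values of 0.478 and 0.0736 by edgeR, and DESeq2 called the second (adjusted p = 0.0163). Sesn2 therefore had a mean above water in all 4 comparisons and was called by edgeR in none of them. It was the one gene of the 9 with an unadjusted p under 0.05 in each.

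Gdf15 encodes a secreted stress signal that lowers appetite through a receptor in the hindbrain. The livers of the lower dose held 6.09, 5.66, 3.11 and 5.20 CPM with water and 24.0, 14.4, 7.00 and 6.49 with NMN. The groups did not overlap, but NMN libraries 3 and 4 were just above the highest water library and NMN library 1 was far above it. The log2 fold change was 1.37 (SE 0.41, adjusted p = 0.465, edgeR; 0.0623, DESeq2), and it was 0.89 at the lowest with 1 library left out. Those of the higher dose held 14.6, 8.89 and 5.98 with water and 14.3, 21.2 and 15.2 with NMN, which overlapped at water library 1, with a log2 fold change of 0.78 (SE 0.30, adjusted p = 0.147, edgeR). The kidney log2 fold changes were 0.20 and 0.09 at the lower and the higher dose, each smaller than its SE.

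**Figure D2:**
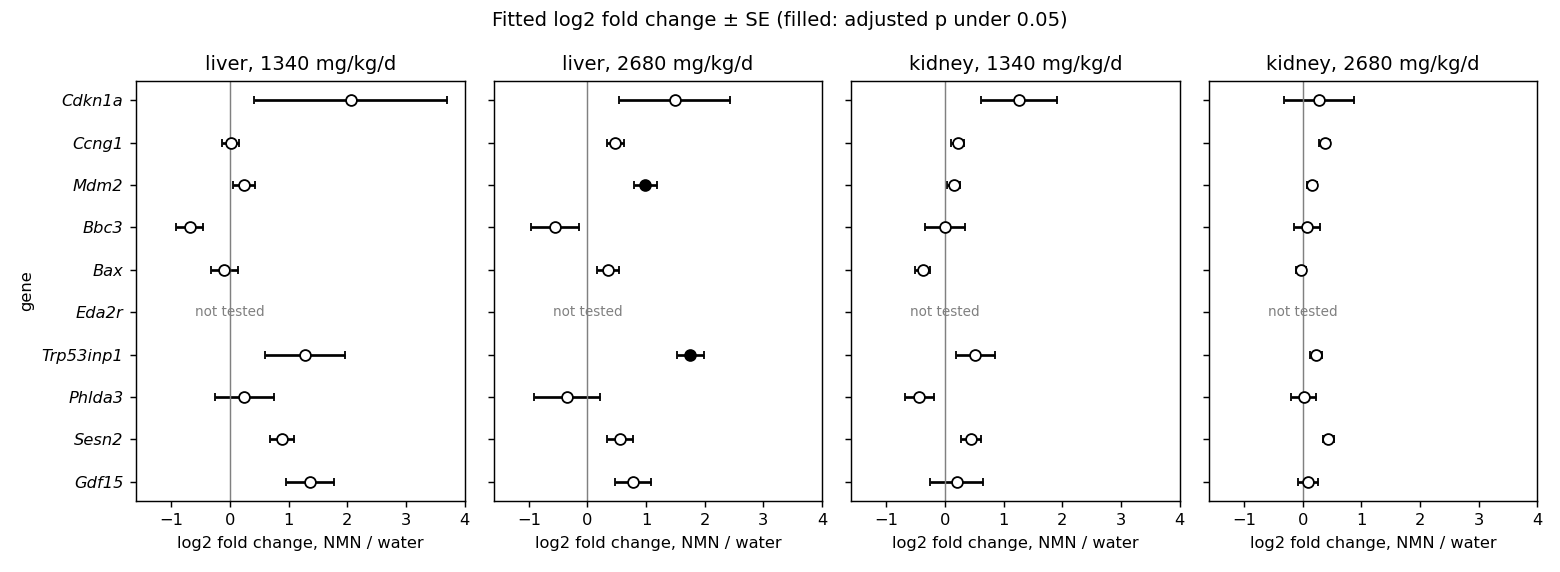
Fitted log2 fold change of NMN over water (x axis) for each p53 target gene (y axis) in the 4 comparisons, with bars of 1 SE; filled points passed an adjusted p under 0.05 and open points did not. The 2 filled points were Mdm2 at 0.99 and Trp53inp1 at 1.76 in the liver at 2680 mg/kg/d, and Eda2r was not tested.

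Among the genes of cell death, Bbc3, which encodes PUMA, a BH3-only protein that frees BAX and BAK, had lower means with NMN in the liver. It stood at 1340 mg/kg/d at 12.8, 7.00, 14.3 and 13.9 CPM with water and at 8.19, 6.82, 7.13 and 7.62 with NMN, so that only water library 2 lay among the NMN values. The log2 fold change was -0.69 (SE 0.23, adjusted p = 0.511, edgeR). At 2680 mg/kg/d it was -0.55 (SE 0.40, adjusted p = 0.435, edgeR), from 18.5, 9.56 and 7.64 CPM to 12.4, 7.03 and 4.89, and the groups overlapped. The kidney log2 fold changes of Bbc3 were 0.00 and 0.07.

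Bax, whose product opens the outer mitochondrial membrane, moved in no common direction. At the higher dose the livers stood at 14.4, 12.9 and 11.9 CPM with water and at 18.5, 16.7 and 14.7 with NMN, without overlap and with a log2 fold change of 0.35 (SE 0.18, adjusted p = 0.267, edgeR). At the lower dose the kidneys stood at 37.2, 36.6, 31.0 and 43.0 with water and at 27.4, 24.0, 35.5 and 26.4 with NMN, overlapping at water library 3 and NMN library 3, with a log2 fold change of -0.38 (SE 0.13, adjusted p = 0.379, edgeR). In the other 2 comparisons its log2 fold changes were -0.09 and -0.03. The exons of Bax share 192 bases (12.2%) with the gene model Gm45808 on the same strand, and reads there could not be assigned.

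Eda2r encodes a receptor of the tumour necrosis factor receptor family for an isoform of ectodysplasin A, and it was counted in reads rather than CPM because it was so rare. Water livers at 2680 mg/kg/d held 1, 4 and 0 reads and the NMN livers 4, 23 and 28. NMN library 1 was level with water library 2, and the other two NMN libraries were well above. Without the filter, over 21070 genes, the fitted log2 fold change was 3.30 (SE 1.04, adjusted p = 0.0219, edgeR), with 5 reads in all with water and 55 with NMN. For the lower dose there were 4, 2, 0 and 2 reads with water and 2, 15, 6 and 0 with NMN, and the groups overlapped (log2 fold change 1.31, adjusted p = 0.777, edgeR without the filter). Kidney sums were 32 reads with water and 30 with NMN at 1340 mg/kg/d, and 22 and 18 at 2680 mg/kg/d, although the NMN kidneys were the deeper libraries there. Eda2r passed the filter when both organs were fitted together at 2680 mg/kg/d, where NMN livers 2 and 3 were its only libraries above 10 reads. Its response differed there between liver and kidney by 4.21 (SE 1.19, adjusted p = 0.0709, edgeR), and it was called without NMN liver library 1, at 4.70. Because its entry into that fit leaned on the libraries where it was high, no conclusion is drawn from this difference. Eda2r was chosen for the fit without the filter after its counts had been seen.

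Phlda3 encodes a protein of a single pleckstrin homology domain that competes with AKT for membrane lipids. It was near 1 CPM in the liver, between 0.212 and 1.67, and between 3.55 and 11.7 CPM in the kidney. Its groups overlapped in all 4 comparisons, with log2 fold changes of 0.24 and -0.35 (liver) and -0.44 and 0.02 (kidney), in order of dose, none of them called. It had between 3 and 26 reads per liver, and its SE there was at least 0.50.

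Cdkn1a encodes p21, the inhibitor of cyclin-dependent kinases through which p53 halts the cell cycle. The liver at 1340 mg/kg/d held 48.3, 2.53, 0.424 and 1.82 CPM with water and 66.6, 103.2, 47.4 and 1.06 with NMN. Water library 1 was as high as an NMN library and NMN library 4 as low as the other three water libraries. The log2 fold change was 2.06 with an SE of 1.64 (adjusted p = 0.866, edgeR), and without water library 1 it was 5.08 (adjusted p = 0.621, edgeR). The liver at 2680 mg/kg/d held 9.84, 1.59 and 0.889 with water and 6.11, 11.8 and 16.8 with NMN, overlapping at water library 1. The log2 fold change there was 1.48 (SE 0.94, adjusted p = 0.397, edgeR), and without water library 1 it was 3.20 and was called (adjusted p = 0.0122, edgeR).

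In the kidney the libraries of the same numbers stood at the extremes. Cdkn1a at 1340 mg/kg/d stood at 16.2, 4.66, 5.86 and 6.93 CPM with water and at 28.4, 23.5, 24.1 and 4.49 with NMN, so that water library 1 was the highest of its group and NMN library 4 the lowest of all. With the higher dose the values were 13.8, 3.67 and 4.14 with water and 8.32, 6.66 and 11.4 with NMN, where water library 1 was above all NMN libraries. The log2 fold changes were 1.26 (SE 0.65, adjusted p = 0.638) and 0.28 (SE 0.59, adjusted p = 0.909) with edgeR. The spread of Cdkn1a within groups was larger than that of at least 99.6% of the tested genes in each of the 4 comparisons. Counting ignored strand, and 273 bases (7.68%) of the Cdkn1a exons overlap AC167363.2 on the other strand.

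The genes most like Cdkn1a across the 14 livers, by Pearson correlation of log2 CPM taken against the mean of the water livers of the schedule, were Clpx (r = 0.94), Pxmp4 (0.93), Slc45a3 (0.91), Arl4a (0.90) and Fos (0.90), of 11981 genes. Their Spearman coefficients were 0.93, 0.94, 0.85, 0.80 and 0.89, and without the 2 libraries farthest from the median of Cdkn1a their Pearson coefficients were 0.92, 0.93, 0.86, 0.88 and 0.85. Clpx, which encodes a subunit of the mitochondrial ClpXP protease, stood in the livers at 1340 mg/kg/d at 279.5, 134.2, 85.5 and 86.0 CPM with water and at 401.0, 355.5, 322.3 and 107.1 with NMN. Its high and low livers were those of Cdkn1a. In the kidney the nearest genes of 14546 were Acnat2 (0.87), Tsc22d1 (0.87), Hsd11b2 (0.86), Mob3a (0.86) and Rbm12 (0.84), none of which was among the 5 of the liver. The coefficients describe libraries that share groups, and no p is given because the genes were ranked by them.

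Among the other p53 targets, Gdf15 (r = 0.78), Trp53inp1 (0.77) and Sesn2 (0.65) followed Cdkn1a across the livers, whereas Mdm2 (-0.08) and Ccng1 (0.02) did not. The values of Phlda3, Bax and Bbc3 were 0.40, 0.39 and -0.26, and without the 2 farthest livers they were at 0.14, 0.10 and -0.05. The coefficient was 0.50 for Sesn2 without the 2 farthest livers, and 0.68 and 0.74 for Gdf15 and Trp53inp1. The kidney coefficients were 0.20 for Gdf15, 0.41 for Trp53inp1, 0.59 for Sesn2, 0.06 for Mdm2 and 0.20 for Ccng1, and without the 2 farthest kidneys -0.12, 0.24, 0.59, -0.24 and 0.24. Those of Phlda3, Bax and Bbc3 were -0.06, -0.28 and -0.02, and 0.24, -0.18 and 0.23 without these kidneys.

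Genes of 2 further lists were set beside Cdkn1a in the same way. Of 18 clock genes, 4 had a Pearson coefficient with Cdkn1a above 0.5 in the liver and 9 below -0.5, beside 6.13% and 6.19% of all genes, and the counts were 4 and 9 also without the 2 farthest livers. In the kidney they were 0 and 1, beside 5.47% and 6.21% of all genes, but 3 and 4 without the 2 farthest kidneys, so that the contrast between the organs depended on those libraries. Of the targets of glucocorticoids and FoxO, 6 of 19 were above 0.5 in the liver, led by Pdk4 (r = 0.86), a kinase that restrains pyruvate dehydrogenase, and Igfbp1 (0.85), both above the coefficient of the clock gene Arntl (0.82). In the kidney 10 of 18 of these targets were above 0.5, and 6 of 18 without the 2 farthest kidneys, and none was below -0.5 in either organ. Arntl, which encodes the activator BMAL1, and Dbp, an output gene of the clock, were chosen as examples after their values had been seen. In the livers at 1340 mg/kg/d Dbp stood at 0.633, 94.2, 139.1 and 129.4 CPM with water and at 6.09, 4.11, 18.9 and 126.2 with NMN, and Arntl at 21.3, 3.93, 1.49 and 0.946 with water and at 14.4, 14.6, 15.4 and 2.79 with NMN. Water library 1 was thus low in Dbp and high in Arntl with NMN libraries 1, 2 and 3, and NMN library 4 was with the other water livers. At 2680 mg/kg/d Dbp stood at 0.412, 135.0 and 64.9 with water and at 9.42, 59.6 and 25.1 with NMN, with water library 1 again the lowest. Arntl stood there at 24.8, 3.29 and 7.35 with water and at 33.5, 5.69 and 14.7 with NMN. Within these NMN livers the pattern did not hold. Library 1 had the lowest Dbp and the highest Arntl but also the lowest Cdkn1a, at 6.11 CPM beside 11.8 and 16.8. In the kidney at 1340 mg/kg/d NMN libraries 1, 2 and 3 were high in Cdkn1a with Dbp at 74.1, 64.2 and 92.3 CPM, among or near the 59.6 to 84.9 of water libraries 2, 3 and 4. The part of these genes in the difference of Cdkn1a between NMN and water was not tested.

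**Figure D3:**
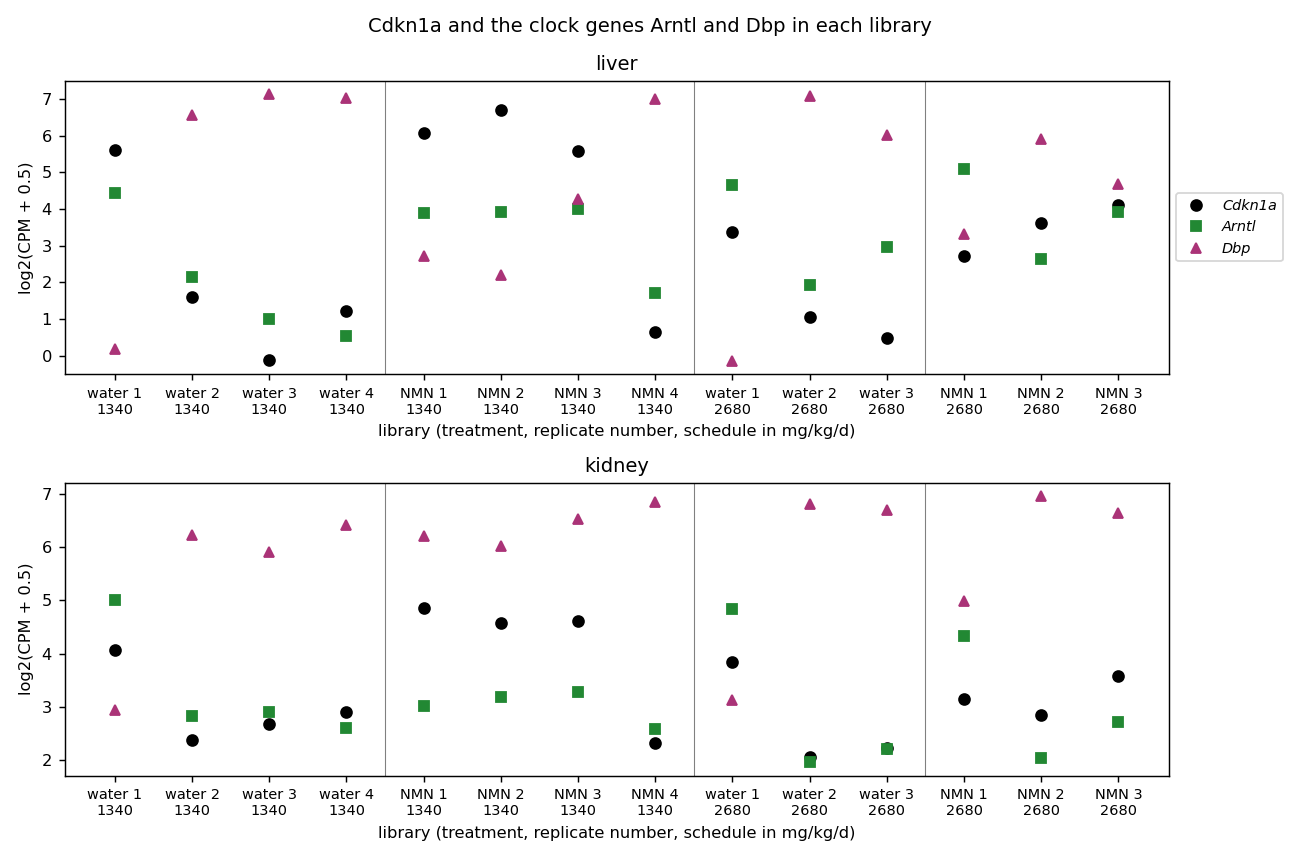
Cdkn1a (circles), Arntl (squares) and Dbp (triangles) as log2(CPM + 0.5) in each of the 14 livers (top) and 14 kidneys (bottom), with vertical lines between groups. Water library 1 was high in Cdkn1a and low in Dbp in both organs and schedules, while NMN kidneys 1, 2 and 3 at 1340 mg/kg/d were high in Cdkn1a and not low in Dbp.

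Trp53, the gene of p53 itself, was called in no comparison of NMN with water. Its log2 fold changes were 0.01 and -0.21 (liver) and -0.09 and -0.07 (kidney), in order of dose, with SEs between 0.09 and 0.19. Livers at 2680 mg/kg/d held 20.3, 25.9 and 23.2 CPM with water and 20.7, 19.6 and 19.5 with NMN, overlapping at water library 1. The list of p53 and its regulators held 17 genes. For the higher dose in the liver 1 of its 13 tested genes was called, near the background of 7.08% of all genes. It was Ep300, which encodes the acetyltransferase p300, higher at 18.7 ± 3.25 against 35.0 ± 11.6 CPM (log2 fold change 0.90, SE 0.24, adjusted p = 0.0455, edgeR). None was called in the other 3 comparisons. At an unadjusted p under 0.05 (edgeR), 4 of the 13 were higher and 2 lower in livers of the higher dose, beside 24.6% of all genes. At that level 1 of 13 was higher in the liver at 1340 mg/kg/d and 1 of 15 lower in the kidney at 2680 mg/kg/d. The shares of all genes in either direction were 6.86% and 11.1%. In the kidney at 1340 mg/kg/d it was 0 of 15, beside 8.94%.

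A second list held 39 further p53 targets. At 2680 mg/kg/d 31 of them were tested in the liver, and 2 rose and 1 fell, beside 3.05% of all genes higher and 4.03% lower. Plk3, a stress-responsive polo-like kinase, rose from 13.5 ± 2.52 to 31.2 ± 2.79 CPM (log2 fold change 1.21, SE 0.18, adjusted p = 0.00526, edgeR). Polk, a DNA polymerase that copies past damaged bases, rose from 1.84 ± 0.458 to 4.99 ± 0.690 CPM (1.44, SE 0.32, adjusted p = 0.0243, edgeR). Dcxr, a reductase of sugars and dicarbonyls, fell from 132.2 ± 27.0 to 60.7 ± 13.9 CPM (-1.12, SE 0.20, adjusted p = 0.0111, edgeR). The median log2 fold change of the 31 was 0.15, with 20 above 0, and that of all tested genes was 0.00.

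At an unadjusted p under 0.05, 4 of the 31 were higher and 2 lower, beside 24.6% of all genes in either direction. In the other comparisons none of these further targets was called. With the lower dose 20 of 32 had a log2 fold change above 0 in the liver and 18 of 36 in the kidney, with medians of 0.06 and -0.00, and at an unadjusted p under 0.05 none was higher and 1 lower in each, beside 6.86% and 8.94% of all genes in either direction. For kidneys of the higher dose it was 22 of 35, with a median of 0.10. An unadjusted p under 0.05 was reached there by 5 of the 35, all higher, where 5.23% of all genes were higher at that level. They were Aen, Btg2, Fdxr, Ddias and Abhd4, named after their values were seen, with log2 fold changes of 0.29, 0.36, 0.28, 1.56 and 0.21.

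The 9 tested genes of the main list had medians above those of all tested genes in each comparison. Median log2 fold changes were 0.24 (liver) and 0.20 (kidney) at 1340 mg/kg/d, and 0.56 and 0.16 at 2680 mg/kg/d, while those of all tested genes lay within 0.01 of 0. Of the 9 genes, 7, 7, 7 and 8 were above 0 in that order of liver and kidney at the lower and then at the higher dose, beside 49.5%, 50.3%, 50.4% and 50.8% of all tested genes. The 2 comparisons at a schedule share no library, but the organs may come from the same mice, so these counts are not separate evidence. Bbc3, Bax and Phlda3 were the genes with a value below 0 in one comparison or more.

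Lists of processes near p53 gave the following counts. Of the genes of the integrated stress response, which ATF4 drives and which also reaches Sesn2, 1 of 20 tested was called in the kidney at 1340 mg/kg/d, Asns, the asparagine synthetase, from 4.88 ± 0.706 to 12.6 ± 4.92 CPM (1.37, SE 0.25, adjusted p = 0.0393, edgeR), where 0.12% of all genes were called. A further 7 were higher at an unadjusted p under 0.05, where 4.34% of all genes were. None of this list was called in the other 3 comparisons. Of the targets of glucocorticoids and FoxO, 19 of 19 tested had a log2 fold change above 0 in the kidney at 1340 mg/kg/d, with a median of 0.64, beside 50.3% of all genes above 0. The numbers above 0 were 16 of 19 and 13 of 19 in the liver, in order of dose, and 17 of 18 in the kidney at 2680 mg/kg/d, beside 49.5%, 50.4% and 50.8%. In the kidney at 1340 mg/kg/d 1 of the 19 was called, beside 0.12% of all genes, Igfbp1, a binding protein of insulin-like growth factors (1.44, SE 0.26, adjusted p = 0.0479, edgeR). In livers of the higher dose 1 of 19 was called, lower, near the background of 4.03% of all genes, and it was Cited2, a transcriptional co-regulator (log2 fold change -1.05, adjusted p = 0.00404, edgeR).

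Clock genes gave 1 call of 18 tested in the kidney at 1340 mg/kg/d, beside 0.12% of all genes, Bhlhe40, a repressor of clock genes, higher by 0.76 (adjusted p = 0.0393, edgeR). Of 24 genes of proliferation, which p21 restrains, between 14 and 19 were tested and none was called in any of the 4 comparisons. Their medians were -0.07 and 0.11 (liver) and -0.25 and -0.08 (kidney), in order of dose. In the kidney at 1340 mg/kg/d 17 of 19 were below 0, beside 7447 of all 14972 tested genes. Of 12 injury markers of either organ, between 7 and 12 were tested and none was called.

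Markers of cell types were read beside these results. At the higher dose the summed hepatocyte markers of the liver stood at 149593, 142048 and 137991 CPM with water and at 115938, 124990 and 127205 with NMN, without overlap, as for 29.8% of single genes there, and 2 of 6 were called lower, Ttr (-0.97) and Serpina1c (-0.58), beside 4.03% of all genes. Of 5 red cell markers there, 3 had a log2 fold change above 0 and 2 below, with a median of 0.08. The 1 called was Alas2, lower (-1.72, adjusted p = 0.00121, edgeR). No marker of cholangiocytes, immune, endothelial or fibroblast and stellate cells was called in the liver or the kidney. In the kidney at 1340 mg/kg/d the summed proximal tubule markers ran from 10100 to 11713 CPM with water and from 9615 to 9910 with NMN, and the 8 distal nephron markers, led by Umod, from 4326 to 5128 with water and from 5491 to 6007 with NMN, both without overlap and with no single marker called. The part of these shifts in the kidney values of Asns, Igfbp1 and Bhlhe40 was not tested. The summed proximal tubule markers of the kidney ran from 8556 to 8761 CPM with water and from 6621 to 7960 with NMN at 2680 mg/kg/d, with none called. The share of mitochondrial counts was 5.74% to 7.37% with water and 7.04% to 9.24% with NMN in the liver at 2680 mg/kg/d. The part of cell composition in the rise of Trp53inp1 and Mdm2 was not tested.

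The levels of the genes could be ordered in the water libraries on a scale per length, transcripts per 1e6 transcripts (TPM) computed from the counts and the summed exon length of each gene. In the kidney Ccng1 was the highest at 129.4 ± 20.4 TPM (SD, n = 7), and its lowest kidney was above the highest value of Bax. Bax followed at 50.4 ± 14.8, Sesn2 at 36.9 ± 10.7 and Mdm2 at 22.7 ± 5.53. Over the 7 libraries each overlapped the next in range, but within each schedule Bax, Sesn2, Mdm2 and Trp53inp1 did not overlap. The pooled SDs include a step between the schedules, with Bax at a mean of 61.5 TPM at 1340 mg/kg/d and 35.6 at 2680 mg/kg/d. Trp53inp1 (13.4 ± 2.10), Phlda3 (11.9 ± 2.22), Gdf15 (11.3 ± 5.33), Cdkn1a (5.44 ± 3.35) and Bbc3 (3.32 ± 0.493) made up the lower part. Neighbours there also overlapped over the 7 libraries. The mean of Gdf15 was above that of Phlda3 at 1340 mg/kg/d (13.9 and 11.6) and below it at 2680 mg/kg/d (7.84 and 12.2). Eda2r, at 0.203 ± 0.101 TPM, was below all the other genes in range.

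In the liver the order was Bax (23.0 ± 7.71 TPM), Ccng1 (18.8 ± 1.65), Trp53inp1 (13.2 ± 8.68), Bbc3 (12.4 ± 4.21), Gdf15 (8.29 ± 4.01), Mdm2 (8.11 ± 2.69), Cdkn1a (5.71 ± 10.7) and Sesn2 (3.81 ± 0.605), with n = 7 and every neighbour overlapping in range. This order differed between the schedules: at 2680 mg/kg/d the mean of Ccng1 (18.5) was above that of Bax (17.6), and those of Bbc3 (11.8) and Gdf15 (11.2) were above that of Trp53inp1 (7.93), which stood at 17.1 at 1340 mg/kg/d. Phlda3 at 1.40 ± 0.690 and Eda2r at 0.0443 ± 0.0425 TPM were each below the gene before it without overlap. The SD of Cdkn1a exceeded its mean, also within each schedule (8.18 ± 14.3 TPM at 1340 mg/kg/d, n = 4, and 2.42 ± 2.91 at 2680 mg/kg/d, n = 3), and its highest water liver, library 1 at 1340 mg/kg/d, held 29.7 TPM.

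**Figure D4:**
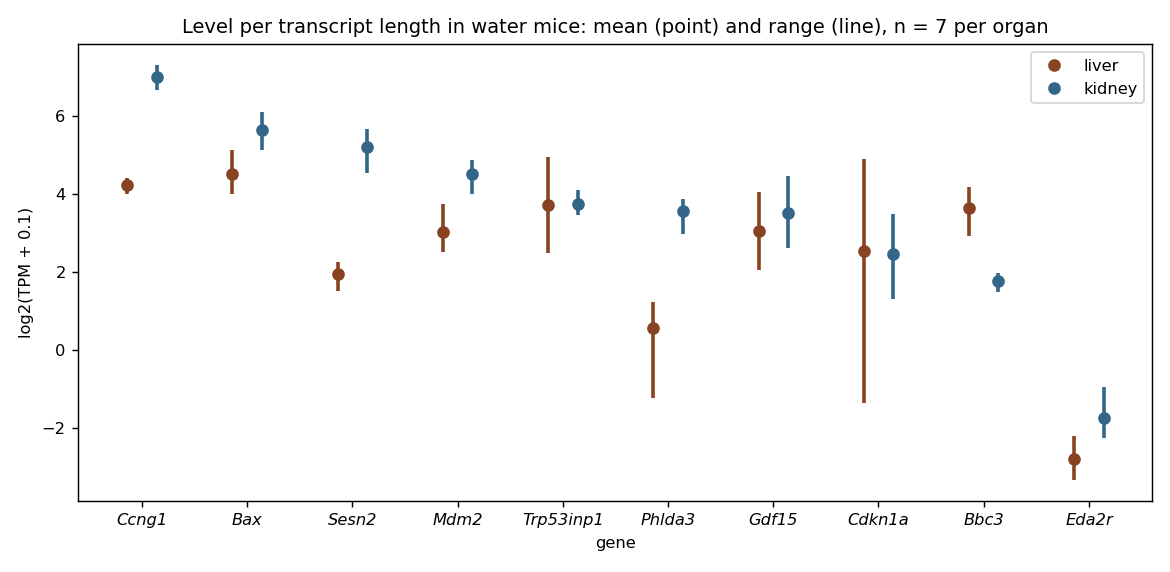
Level of each p53 target gene in water mice as log2(TPM + 0.1) in the liver (brown) and the kidney (blue), with the mean as a point and the lowest to highest of 7 libraries as a line. Genes are ordered by their kidney mean, from Ccng1 at 129.4 TPM to Eda2r at 0.203 TPM, and Cdkn1a had the widest range in the liver.

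Between the organs of water mice, Ccng1, Sesn2, Phlda3 and Mdm2 were higher in the kidney and Bbc3 in the liver, whichever scaling was used. In the TMM-scaled fit of the 14 water libraries, which did not pair the organs, 6 of 9 tested genes were called. As 76.3% of 15912 genes were called, this count was near the background. The log2 difference of liver minus kidney was -1.68 for Ccng1 (SE 0.08, adjusted p = 5.67e-13), -2.12 for Sesn2 (SE 0.15, adjusted p = 1.58e-10), -1.97 for Phlda3 (SE 0.30, adjusted p = 8.16e-06) and -0.39 for Mdm2 (SE 0.11, adjusted p = 0.00470), all by edgeR. Bbc3 was 7.99-fold higher in the liver (SE 0.22 on the log2 scale, adjusted p = 2.64e-10, edgeR). The size of every difference depended on the scaling, since the median of all genes was -0.15 with TMM and -1.13 with library totals alone. With library totals alone Ccng1 was at -2.65, Sesn2 at -3.09, Phlda3 at -2.95 and Mdm2 at -1.36, and Bbc3 was 4.06-fold higher in the liver. The other genes changed their call or direction or were not called with either scaling, and Trp53inp1 was at 0.99 (adjusted p = 0.00654) with the first and at 0.02 (adjusted p = 0.960) with the second, by edgeR.

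Bax was at -0.00 (SE 0.15, adjusted p = 0.985, edgeR) with TMM and called at -0.98 with library totals alone, and Gdf15 was at 0.67 (adjusted p = 0.0652, edgeR) and at -0.31. With same-numbered organs taken as a pair, Gdf15 was called at 0.66 (adjusted p = 0.0329, edgeR). Trp53, at 0.33 (adjusted p = 0.00647, edgeR) with TMM and -0.65 with library totals alone, reversed as well. Cdkn1a differed by 0.99 with an SE of 0.95 and was not called, and with the pairing the value was -0.06.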

How the data were processed

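RNA from liver and kidney of mice given NMN or water was sequenced in 28 libraries, grouped by the sample labels. Alignment by the authors used STAR, and reads per gene came from HTSeq-count (strict intersection, strand ignored). The deposited values are raw counts without normalization. Of 54446 identifiers, 53229 matched GENCODE M21 with their version, 1180 without it and 37 not at all. The build of the counts was not clear from the sources, so no gene coordinates from it are given. Promoters came from RefSeq. Versions of the authors' tools are not given here.

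Counts were tested in R 4.3.3 with edgeR 4.0.16 (filterByExpr, TMM, robust quasi-likelihood, Benjamini-Hochberg adjustment) in 9 comparisons: NMN against water in each organ and schedule, interactions of schedule or organ with NMN, and liver against kidney in water mice. Standard errors are the log2 fold change over the square root of F. Alternatives were DESeq2 1.42.0, other scalings and filters, the replicate block, thinned counts and each library left out. Library totals alone and the unfiltered fit of Eda2r were added after seeing the data. The code was tested on simulated counts. The 10 genes and all lists were chosen with earlier results of these data known. All 10 genes and Trp53 are named, from each other list up to 3 called genes of the smallest p with at least 1 CPM, and the 5 genes most like Cdkn1a. The result of 1 listed gene is not reported here. Counting error alone does not cover PCR copies, since reads carried no molecular identifiers.

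Whether same-numbered organs came from 1 mouse is not stated. In water mice the deviations of same-numbered liver and kidney from their group means correlated at 0.117 to 0.331 across genes in all 7 pairs. The number was therefore taken as a pairing there, from the data, but only in an alternative fit. The values reported between the organs of water mice come from the fit without pairing, unless the pairing is named. The 7 NMN pairs ran from -0.00851 to 0.230, and 4 of them correlated better with another number, so the organs of NMN mice were not paired by it. Same-numbered NMN and water libraries correlated at -0.117 to 0.206 and were not paired.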

Additional observations from a re-analysis of the deposited data

Results flagged for a closer look

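Of 44 groups of 4 libraries checked for a value far from the others, 4 had one, and chance gives about 1 in 20. In the liver at 1340 mg/kg/d, water library 1 held 48.3 CPM of Cdkn1a and the next water library 2.53. Phlda3 stood at 1.67 CPM in NMN liver library 3 at 1340 mg/kg/d, with the next at 1.21. Eda2r stood at 0.881 CPM in water kidney library 2, with the next at 0.401, and at 1.21 in NMN kidney library 1, with the next at 0.428, both at 1340 mg/kg/d and from 14 and 16 reads. The response of Trp53inp1 to NMN at 2680 mg/kg/d differed between liver and kidney by 1.51 on the log2 scale in a test of the difference itself (adjusted p = 0.0136, edgeR).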

How the results depend on the processing

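Counts of called genes depended on the tool, the filter and the threshold, and the cause was not tested except where the setting itself changes how many genes or libraries enter. The values below give NMN against water in the order liver 1340, liver 2680, kidney 1340 and kidney 2680 mg/kg/d, where the reported counts of called genes were 2, 883, 18 and 61. DESeq2 called 74, 1448, 159 and 236 genes, the unfiltered fit 44, 1785, 269 and 514, an unadjusted p under 0.05 gave 854, 3072, 1338 and 1688, and the stricter threshold 0, 135, 2 and 3. Without the robust option 5 genes were called in the kidney at 1340 mg/kg/d. A fit of all 14 libraries of an organ called 6 genes in the liver at 1340 and 35 in the kidney at 2680 mg/kg/d. Of the p53 targets, reported as 0, 2, 0 and 0 called, DESeq2 called 1 in the liver at 1340 mg/kg/d and 2 in the kidney at 2680 mg/kg/d, and the unfiltered fit 4 in the liver at 2680, 1 in the kidney at 1340 and 2 in the kidney at 2680 mg/kg/d. The fit of all 14 livers called 1 at 2680 mg/kg/d, the unadjusted threshold gave 3, 5, 2 and 3, and the stricter threshold 1 in the liver at 2680 mg/kg/d.

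For the interaction of schedule with NMN, with 10 genes called in the liver and 1 in the kidney, DESeq2 called 99 and 10 and the unfiltered fit 71 and 106, the latter with 1 p53 target, Cdkn1a (-0.96, adjusted p = 0.0277, edgeR). The kidney count was 0 with the upper quartile, with library totals alone, with at least 10 counts in every library and without the robust option. For the interaction of organ with NMN, with 0 genes called at 1340 and 419 at 2680 mg/kg/d, DESeq2 called 26 and 1232, the unfiltered fit 9 and 1307, and library totals alone 2 at 1340 mg/kg/d. The 1 p53 target called at 2680 mg/kg/d became 3 with DESeq2, 4 without the filter, and 2 each with at least 10 counts in every library and with library totals alone. Between the organs 12133 genes were called and 7909 with at least 10 counts in every library, where fewer genes were tested.

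The replicate block was fitted although same-numbered NMN and water libraries share only a number, with correlations from -0.117 to 0.206. With the block, 16 genes were called in the liver at 1340, 75 in the kidney at 1340 and 92 in the kidney at 2680 mg/kg/d, 2 in the interaction of schedule with NMN in the kidney, and 5 and 247 in the interactions of organ with NMN at 1340 and 2680 mg/kg/d. It changed the direction of 4 differences close to 0, to -0.0751 for Bbc3 in the kidney at 1340, -0.0287 for Phlda3 in the kidney at 2680 mg/kg/d, 0.0260 for Sesn2 between kidney schedules and -0.0568 for Cdkn1a between organs. Other settings reversed Bbc3 in the kidney at 1340 mg/kg/d (-0.00894 with the upper quartile, -0.0278 with thinned counts, -0.000502 with all 14 libraries), Sesn2 between kidney schedules (0.0136 without the filter) and Gdf15 between organs (-0.31 with library totals alone).

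With each library left out in turn, called genes ranged from 0 to 18, 211 to 1308, 5 to 67 and 3 to 191 for NMN against water, from 7 to 25 and 0 to 1 for the schedule interactions in liver and kidney, and from 0 to 9 and 118 to 1347 for the organ interactions. In the liver at 2680 mg/kg/d the count was 314 without water library 1, 211 without water library 2, 492 without water library 3 and 237 without NMN library 3, and p53 targets called there ranged from 1 to 3. Those called in the organ interaction at 2680 mg/kg/d ranged from 1 to 2. Several log2 differences that were not called crossed 0. In the liver these were Ccng1 (-0.0379 to 0.0981), Bax (-0.298 to 0.0697) and Phlda3 (-0.0981 to 0.50) at 1340, and Phlda3 (-0.603 to 0.0264) at 2680 mg/kg/d. In the kidney they were Bbc3 (-0.30 to 0.23) at 1340, and Bbc3 (-0.0193 to 0.213), Cdkn1a (-0.0332 to 1.17), Phlda3 (-0.30 to 0.18) and Gdf15 (-0.0466 to 0.193) at 2680 mg/kg/d. Between liver schedules they were Trp53inp1 (-0.0241 to 0.866), Cdkn1a (-3.60 to 1.14) and Bbc3 (-0.30 to 0.60), and between kidney schedules Sesn2 (-0.13 to 0.14), Mdm2 (-0.0478 to 0.106), Bbc3 (-0.16 to 0.37), Gdf15 (-0.470 to 0.0542) and Trp53inp1 (-0.46 to 0.13). Between the organs' responses they were Mdm2 (-0.0534 to 0.243) at 1340 and Sesn2 (-0.0435 to 0.234) at 2680 mg/kg/d, and between the organs of water mice Cdkn1a (-0.61 to 1.40) and Bax (-0.0898 to 0.109).

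Trp53inp1 in the liver at 2680 mg/kg/d kept its direction in every setting run and its call in all but the fit of all 14 livers. Low counts limit Eda2r, with at most 28 reads in a liver, and Phlda3, with at most 26. Cdkn1a, with its wide spread, was called only in single settings: without water liver library 1 at 2680 mg/kg/d, and without the filter in the interactions of schedule with NMN in the kidney and of organ with NMN at 2680 mg/kg/d.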
